A study of Mus musculus with 8 samples.

Results

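The mouse genes named Zfp800 to Zfp999 are a numbered run of zinc finger genes, and 59 of them were measured here among 19938 genes. They were taken by name alone: every gene whose symbol on the array platform is Zfp followed by a 3-digit number that begins with 8 or 9, read from a probe set listed for that single symbol. Where a gene had more than 1 such probe set (Zfp825 and Zfp985), the brightest was used. The other 282 measured genes with Zfp names served for comparison. A further 19 symbols of the run were listed only on probe sets shared by several genes and have no value of their own.

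The samples were mouse embryonic fibroblasts, the cultured connective tissue cells of the embryo, from Daxx knockout mice of the FVB/N background. All 8 samples carried the Daxx knockout: 4 had been complemented with an empty vector and 4 with Daxx, which is a histone chaperone that works with Atrx. The Daxx samples bore the names DaxxA (2 arrays) and DaxxB (2 arrays), and the study sought genes that Daxx regulates. The meaning of A and B, the way Daxx was introduced, whether a line was 1 clone and whether replicates were separate cultures are not in the labels. The p-values therefore reflect only how far these samples scatter, and that scatter may be technical. With no wild-type fibroblasts among the samples, levels in cells with their own Daxx gene were not analysed here.

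Most mouse zinc finger genes of this run encode proteins with a string of C2H2 zinc fingers, each finger a small loop held by a zinc ion that reads a short stretch of DNA, and many carry a KRAB domain at the other end. The KRAB domain recruits Trim28, which in turn brings the histone methyltransferase Setdb1 and heterochromatin protein 1 to the bound DNA. Many of these proteins silence endogenous retroviruses and other mobile elements, and their genes lie in clusters that grew by duplication, so that neighbours are often near copies of each other.

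The promoters of 6 members are shown because of their differences between arrays. Zfp866 differed between Daxx and vector arrays. The other 5 were called between DaxxA and DaxxB on 7 arrays without vector replicate 2, but not on all 8. Zfp935, Zfp825 and Zfp839, also called on those 7 arrays, are not shown. Each printed promoter runs from 250 bases before to 50 bases after the start of the gene. It is given 5′ to 3′ on the strand of the gene, in the RefSeq annotation of GRCm38.p6. Capitals mark the letters CCAATCA, a form of the CCAAT box found in many promoters, and GAGGCG.
Zfp866 (chr8:69774862-69775161, minus strand): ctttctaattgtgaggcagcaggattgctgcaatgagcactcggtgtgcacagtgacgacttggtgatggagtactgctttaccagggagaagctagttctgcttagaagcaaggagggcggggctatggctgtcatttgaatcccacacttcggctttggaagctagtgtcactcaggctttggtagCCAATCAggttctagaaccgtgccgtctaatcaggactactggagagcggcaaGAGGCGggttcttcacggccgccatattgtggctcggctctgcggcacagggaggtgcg
Zfp931 (chr2:178078376-178078675, minus strand): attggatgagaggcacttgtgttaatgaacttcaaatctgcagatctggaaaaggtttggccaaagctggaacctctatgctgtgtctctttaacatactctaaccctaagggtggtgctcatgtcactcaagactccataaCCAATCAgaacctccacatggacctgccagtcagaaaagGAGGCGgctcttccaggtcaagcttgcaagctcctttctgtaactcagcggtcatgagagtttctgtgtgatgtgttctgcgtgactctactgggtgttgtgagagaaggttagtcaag
Zfp971 (chr2:178023034-178023333, plus strand): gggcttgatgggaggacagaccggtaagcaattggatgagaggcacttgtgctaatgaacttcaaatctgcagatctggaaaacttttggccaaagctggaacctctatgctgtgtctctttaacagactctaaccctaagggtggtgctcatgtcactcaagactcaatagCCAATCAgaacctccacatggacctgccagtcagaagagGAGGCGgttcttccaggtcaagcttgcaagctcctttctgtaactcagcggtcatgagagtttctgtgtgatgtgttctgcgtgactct
Zfp975 (chr7:42692669-42692968, minus strand): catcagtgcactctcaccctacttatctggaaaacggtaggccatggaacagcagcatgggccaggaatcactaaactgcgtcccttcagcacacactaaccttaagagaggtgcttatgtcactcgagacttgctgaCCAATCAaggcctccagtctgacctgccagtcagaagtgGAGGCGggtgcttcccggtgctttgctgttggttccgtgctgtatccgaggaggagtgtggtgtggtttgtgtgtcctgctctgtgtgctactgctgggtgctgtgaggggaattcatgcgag
Zfp942 (chr17:21962415-21962714, minus strand): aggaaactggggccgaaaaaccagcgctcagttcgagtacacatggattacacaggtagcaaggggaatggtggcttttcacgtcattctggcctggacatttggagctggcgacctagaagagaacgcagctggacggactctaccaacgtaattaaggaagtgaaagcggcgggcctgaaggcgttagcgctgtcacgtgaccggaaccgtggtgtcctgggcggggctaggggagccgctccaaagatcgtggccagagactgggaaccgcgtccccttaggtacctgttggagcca
Zfp943 (chr17:21962309-21962608, plus strand): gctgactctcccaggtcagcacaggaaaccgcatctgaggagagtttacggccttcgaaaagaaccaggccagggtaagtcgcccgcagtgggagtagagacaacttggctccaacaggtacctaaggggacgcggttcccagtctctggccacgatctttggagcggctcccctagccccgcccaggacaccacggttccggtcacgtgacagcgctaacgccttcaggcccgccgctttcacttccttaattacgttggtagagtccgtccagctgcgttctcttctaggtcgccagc

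The promoters of Zfp931 and Zfp971 were near copies, with 262 identical bases over 270 aligned columns (97.04%). These genes are direct neighbours in the gene order. Zfp975, on another chromosome, had a related promoter, with 162 identical bases over 229 aligned columns to that of Zfp931 (70.74%). Zfp942 and Zfp943 start 95 bases apart on opposite strands, and their printed windows share 194 bases, read in opposite directions. The promoter of Zfp942 was also 99.64% identical over 275 aligned columns to that of Zfp944, another member of the same cluster.

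Promoter sequences were found for 54 of the 59 members, in 68 windows. The motif letters were chosen after the sequences had been seen, and both strands were searched. CCAATCA was present in 27 of the 68 windows (39.7%), against 11.8% of the windows of other Zfp genes and 7.82% of all 32851 windows. CCAAT, which every CCAATCA contains, was in 69.1% of the members' windows and in 37.4% of all windows. GAGGCG, which shares no position with CCAATCA in the printed windows, differed less: 32.4% of the members' windows held it, against 30.4% for other Zfp genes and 22.4% of all. Both CCAATCA and GAGGCG stood in 12 of the 68 windows (17.6%), against 3.93% and 2.4%. Zfp866, Zfp931, Zfp971, Zfp975 and Zfp935 have both. So do Zfp868, Zfp872, Zfp873 and Zfp958, not called for Daxx minus vector or DaxxA minus DaxxB on 8 or 7 arrays. Zfp942 and Zfp943 have neither. These are descriptions of letters, many of the windows are related by duplication, and the base composition was close to that of all windows (median GC 52.5% against 52.7%).

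Signals are deposited log2 values, so a difference of 1 is a change of 2-fold, and each probe set has its own response, so that the order of genes by signal is only a rough order of abundance. The array called vector replicate 2 stood apart from the other 7. Its interquartile range over all probe sets was 2.79, against 3.31 to 3.39. Olfactory receptor genes, a background because fibroblasts are not known to use them, had a median of 5.21 on that array and 4.65 to 4.70 on the others. The 59 members had a median of 6.97 on it and 7.07 to 7.35 on the others. It was the lowest of the 4 vector arrays for 35 of the 48 members above the background level described next, and the highest for 7 of the 11 members that were not above it. Results are therefore given on all 8 arrays and on 7 arrays without it. The Daxx probe set itself ranged from 6.85 to 7.34 in the vector arrays and from 7.23 to 7.46 in the arrays labelled Daxx (adjusted p = 0.46), so it did not separate the conditions and the directions rest on the labels. Of 12 fibroblast markers, 11 lay above the background level, Lum being the exception, as did 0 of 5 endothelial, 0 of 6 germ cell, 1 of 6 pluripotency, 2 of 6 blood, 3 of 6 epithelial and 4 of 6 neural markers. The mean level of the fibroblast list was 9.79 to 9.82 in the vector, 9.38 to 9.39 in the DaxxA and 9.48 to 9.52 in the DaxxB arrays, and its part in the members' differences was not tested.

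The members spanned almost the whole range of the array. Their median over the 8 arrays was 7.19, with quartiles of 6.31 and 8.58. The median of the other Zfp genes was 7.58 and that of all genes 6.99. The background level was set at 6.07, the 95th percentile of the olfactory receptor genes, and 48 of the 59 members (81.4%) lay above it, as did 85.1% of the other Zfp genes and 65.1% of all genes. The brightest members were Zfp948 (11.05), Zfp961 (10.22), Zfp938 (10.16), Zfp871 (10.04) and Zfp971 (9.98). Zfp961 is reported to recognise the primer binding site of some retroelements. Zfp948 ranged from 10.92 to 11.12 over the 8 arrays, and its signal exceeded that of 96.0% of genes. Its Daxx values (11.05 to 11.11) lay below that of vector replicate 2 (11.12) and above those of the other 3 vector arrays (10.92 to 11.04), and the difference was 0.07 on 8 arrays and 0.10 on 7 (adjusted p = 0.67 and 0.174). The dimmest were Zfp811 (4.22), Zfp979 (4.30) and Zfp982 (4.33), all within the range of the olfactory receptor genes.

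**Figure D1:**
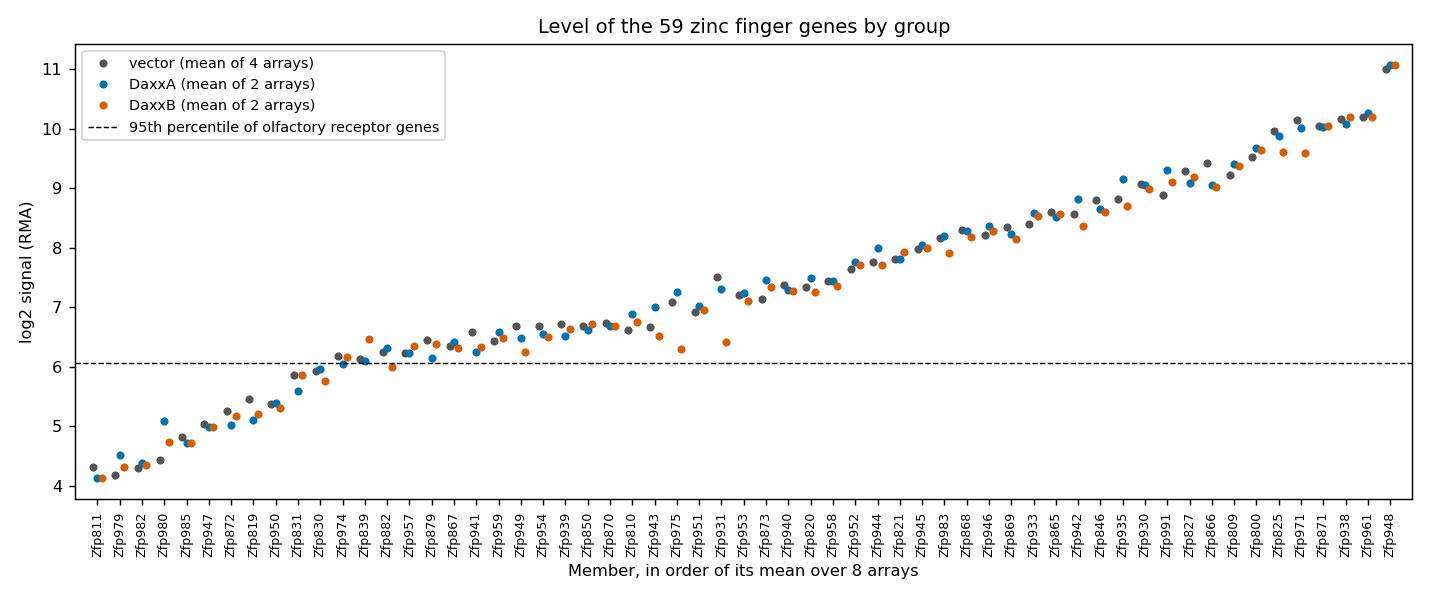
Mean log2 signal of each of the 59 members (horizontal axis, in order of the mean over 8 arrays) in vector (4 arrays, grey), DaxxA (2, blue) and DaxxB (2, orange) arrays; the dashed line is the 95th percentile of olfactory receptor genes. The 3 means nearly coincide for most members, while the DaxxB means of Zfp931, Zfp975 and Zfp971 lie below the other means.

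Members with a known role gave the following values. Zfp809, which silences murine leukaemia virus by binding its proline primer binding site, read 9.31, 8.95, 9.30 and 9.37 in the vector arrays, 9.40 and 9.41 in DaxxA and 9.38 and 9.37 in DaxxB. Only vector replicate 2 lay well below the rest, and the difference between Daxx and vector was 0.16 on 8 arrays and 0.06 on 7 (adjusted p = 0.505 and 0.42). Zfp827, whose human counterpart brings the NuRD complex to telomeres, had a difference of -0.14 on 8 arrays (adjusted p = 0.418) and fell by 0.20 on 7 (adjusted p = 0.0408). Zfp800 was a little higher in every Daxx array (9.64 to 9.70) than in any vector array (9.46 to 9.57), but the difference of 0.14 did not pass the test (adjusted p = 0.208). Zfp819, a repressor of endogenous retroviruses in stem cells, and Zfp830, which the early embryo needs, were below the background level, at 5.31 and 5.90. Zfp819 differed by -0.29 on 8 arrays and by -0.11 on 7 (adjusted p = 0.487 and 0.281), its vector replicate 2 value of 6.02 lying above the other 3 (5.25 to 5.30). Zfp949 read 6.58 to 6.80 with vector and 6.16 to 6.51 with Daxx, with no overlap. Its difference was -0.31 on 8 arrays (adjusted p = 0.096), and it fell by 0.27 on 7 (adjusted p = 0.0455).

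The comparison of Daxx with vector arrays asks which of these genes Daxx regulates. Zfp866 was lower wherever Daxx had been put back, and it was the only member called on 8 arrays. It read 9.45, 9.32, 9.44 and 9.48 in the vector arrays, 9.09 and 9.02 in DaxxA and 9.06 and 8.99 in DaxxB. Every Daxx value lay below every vector value. Zfp866 fell by 0.38 (SE 0.055, 1.30-fold, adjusted p = 0.00564, n = 4 and 4), and the two-sided exact permutation p was 0.0286, the smallest that 4 against 4 arrays can give. The call was made in all 8 fits that left out 1 array. It was not made in the fit with the replicate numbers as a block, given in the closing section. Zfp866 encodes a zinc finger protein, and its probe set lists no other gene.

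The share of called members differed between 8 and 7 arrays. For Daxx minus vector on 8 arrays, 1 of 59 members (1.69%) was called. Of all genes 4.52% were called (902 of 19938, with 2.73% called lower), and of other Zfp genes 12 of 282. The median difference was -0.03 for the members and -0.03 for all genes on 8 arrays, and -0.06 and 0.02 on 7. Groups did not overlap for 5 of 59 members (Zfp800, Zfp982 and Zfp991 higher, Zfp866 and Zfp949 lower), against 14.8% of all genes. On 7 arrays, without vector replicate 2, 12 of 59 members (20.3%) were called, against 12.8% of all genes and 12.4% of other Zfp genes.

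Of these 12, 4 rose on the 7 arrays: Zfp980 by 0.50, Zfp979 by 0.30, Zfp991 by 0.28 and Zfp957 by 0.22. The other 8 fell: Zfp931 by 0.83, Zfp971 by 0.46, Zfp866 by 0.41, Zfp954 by 0.36, Zfp846 by 0.29, Zfp949 by 0.27, Zfp825 by 0.26 and Zfp827 by 0.20. Of all genes, 5.26% rose and 7.57% fell. Adjusted p-values of the 12 members ran from 0.000117 for Zfp866 to 0.0475 for Zfp825. Only Zfp866 was called with and without vector replicate 2.

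**Figure D2:**
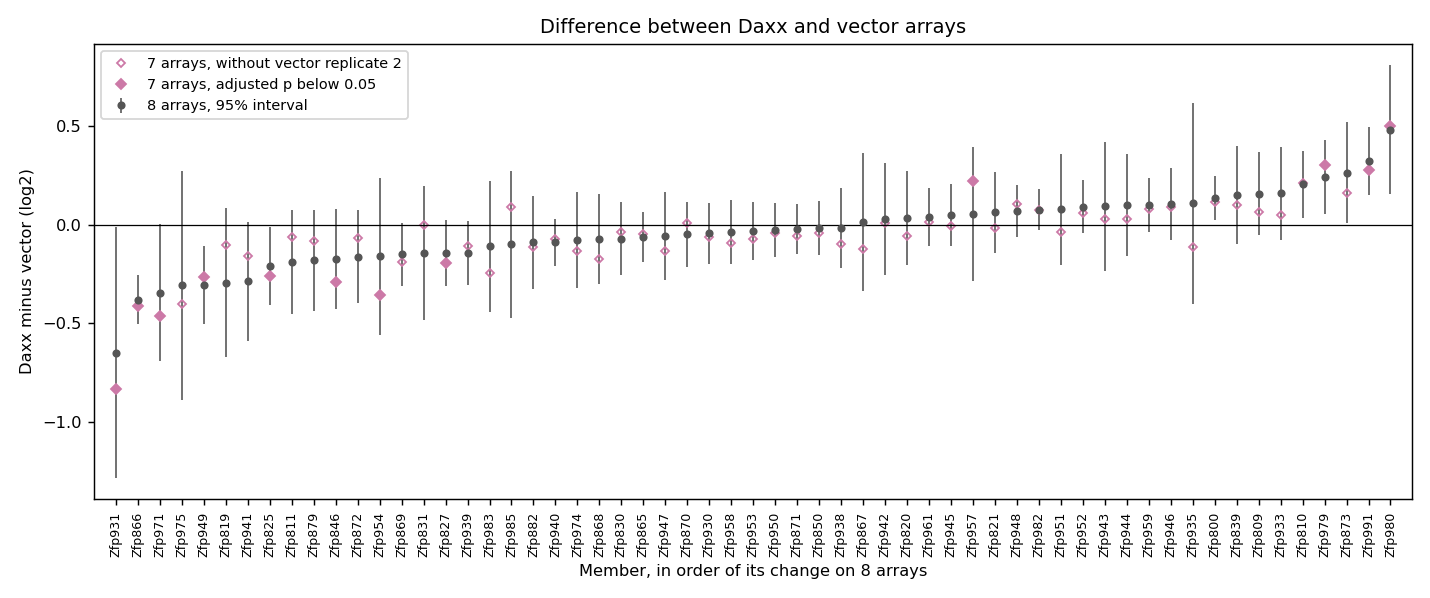
Difference between Daxx and vector arrays (log2) for the 59 members, in order of the 8-array difference: circles with 95% intervals are from 8 arrays, diamonds from 7 arrays without vector replicate 2, filled where adjusted p is below 0.05. Zfp866 has a short interval below 0, while Zfp931 and Zfp980 have the extreme differences with wide intervals.

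Zfp991, Zfp980 and Zfp979 belong to the large zinc finger cluster of chromosome 4, several of whose members silence retroelements. Zfp991 read 8.94, 8.75, 8.94 and 8.92 in the vector arrays, 9.30 and 9.33 in DaxxA and 9.11 in both DaxxB arrays. All Daxx values lay above all vector values, and the DaxxA values above the DaxxB values. The difference of 0.32 (SE 0.076, 1.25-fold) just missed the threshold on 8 arrays (adjusted p = 0.0508) and passed on 7 (adjusted p = 0.0152). Zfp980 read 4.32, 4.48, 4.31 and 4.63 with vector, 5.02 and 5.16 in DaxxA and 4.49 and 4.99 in DaxxB, a difference of 0.48 (SE 0.145, 1.40-fold, adjusted p = 0.12 on 8 arrays). Zfp979 read 4.08 to 4.36 with vector and 4.31 to 4.56 with Daxx. Both lay below the background level in every array. The groups of Zfp980 overlapped with or without vector replicate 2, whereas those of Zfp979 overlapped only through that array (4.36), the other 3 vector arrays reading 4.08 to 4.16.

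DaxxA and DaxxB were then each set against the same 4 vector arrays, so these comparisons share their controls. In DaxxA, Zfp866 fell by 0.37 (adjusted p = 0.047) and Zfp991 rose by 0.42 (adjusted p = 0.0344), 2 of 59 members against 1.97% of all genes (0.522% higher and 1.45% lower). In DaxxB, Zfp866 fell by 0.39 (adjusted p = 0.0297) and Zfp975 fell by 0.78 (adjusted p = 0.0417), 2 of 59, both lower, against 2.69% of all genes (1.92% lower). With any 1 of the 7 arrays other than vector replicate 2 left out, 0 members were called in either comparison. Without vector replicate 2, 11 members were called in DaxxA (6 rose and 5 fell, against 11.3% of all genes) and 20 in DaxxB (4 rose and 16 fell, against 20.5%). The 16 that fell in DaxxB stand against 9.53% of all genes called lower there, and the 4 that rose against 10.9% called higher. In DaxxA 4.46% of all genes were called higher and 6.8% lower.

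The direct comparison of DaxxA with DaxxB shows where the 2 kinds of Daxx sample differed. Members tended to be higher in DaxxA: the difference was above 0 for 41 of 59, with a median of 0.06, whereas it was above 0 for 7222 of 19938 genes, with a median of -0.04. Both DaxxA values lay above both DaxxB values for 25 of 59 members (42.4%), against 17.9% of all genes and 30.9% of other Zfp genes, and below them for 11, against 35.9% of all genes. In either direction the groups did not overlap for 36 of 59 members, against 53.8% of all genes. On 8 arrays 0 members were called, against 0.0% of all genes, although 9 members and 846 genes (4.24%) had an unadjusted p below 0.05.

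The vector arrays do not enter the DaxxA minus DaxxB difference itself, only the estimate of the spread. On 7 arrays, without vector replicate 2, 8 of 59 members (13.6%) were called, against 2.15% of all genes (428) and 6 of 282 other Zfp genes. Of the 8, 7 were higher in DaxxA and 1 lower, against 0.787% and 1.36% of all genes. With the 4 DaxxA and DaxxB arrays alone, 7 members were called (11.9%, against 1.82% of all genes), all of them among the 8. Zfp825 was the exception (adjusted p = 0.0607). A permutation test of 2 against 2 arrays cannot go below p = 0.333, so these calls rest on the spread that limma shares across genes.

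Zfp975, Zfp931 and Zfp971, whose promoters are related in the printed sequences, were all lower in DaxxB. Zfp975 read 7.23 and 7.27 in DaxxA, 6.12 and 6.48 in DaxxB and 6.81 to 7.31 in the vector arrays. Zfp931 read 7.30 and 7.31 in DaxxA, 6.22 and 6.61 in DaxxB and 6.95 to 7.85 with vector. Zfp971 read 10.00 and 10.04 in DaxxA, 9.59 and 9.60 in DaxxB and 9.79 to 10.33 with vector. For all 3 genes the DaxxB arrays were the lowest of the 8. The DaxxA values of Zfp975 lay among those of the vector arrays with or without vector replicate 2. Those of Zfp931 and Zfp971 lay above vector replicate 2 (6.95 and 9.79) and below the other 3 vector arrays (7.50 to 7.85 and 10.16 to 10.33). On 7 arrays DaxxA differed from vector by -0.39 for Zfp931 (adjusted p = 0.0527), and Zfp971 fell by 0.25 (adjusted p = 0.0188). On the 7 arrays DaxxA exceeded DaxxB by 0.95 for Zfp975 (SE 0.105, 1.93-fold, adjusted p = 0.013), by 0.89 for Zfp931 (SE 0.124, 1.85-fold, adjusted p = 0.0237) and by 0.43 for Zfp971 (SE 0.065, 1.34-fold, adjusted p = 0.0237). On 8 arrays the 3 adjusted p-values were 1. Members that were not called also had related promoters. Those of Zfp950 and Zfp958 were 75.28% and 72.84% identical to that of Zfp971, over 271 and 243 aligned columns. Zfp950, which was not above the background level, and Zfp958 differed between DaxxA and DaxxB by 0.10 and 0.08 on 7 arrays (limma, adjusted p = 0.402 and 0.453). A link between promoter and difference was not tested.

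Zfp942 and Zfp943, which share a promoter region, had differences of like size. Zfp942 read 8.83 and 8.82 in DaxxA, 8.26 and 8.50 in DaxxB and 8.51 to 8.61 with vector. Zfp943 read 6.97 and 7.06 in DaxxA, 6.47 and 6.57 in DaxxB and 6.49 to 6.86 with vector. In both genes DaxxA lay above every vector array. The DaxxB arrays lay below every vector array for Zfp942 and overlapped them for Zfp943. The differences between DaxxA and DaxxB were 0.45 (SE 0.072, adjusted p = 0.0273) and 0.49 (SE 0.075, adjusted p = 0.0237) on 7 arrays, and both adjusted p-values were 1 on 8.

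Zfp935 read 8.99 and 9.32 in DaxxA against 8.67 and 8.75 in DaxxB, a difference of 0.45 (adjusted p = 0.0385 on 7 arrays). Its vector replicate 2 value was 8.17, while the other 3 vector arrays read 9.01 to 9.10. Zfp825 read 9.84 and 9.91 against 9.58 and 9.65, a difference of 0.26 (adjusted p = 0.0395 on 7 arrays), and its second probe set differed by 0.19 in the same direction. Zfp839 went the other way, at 6.17 and 6.04 in DaxxA and 6.51 and 6.42 in DaxxB, a difference of -0.36 (adjusted p = 0.0306 on 7 arrays), close to the background level. None of the 3 passed on 8 arrays (adjusted p = 1).

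Other members did not pass on 7 arrays, some of them with larger differences than Zfp825. Above 0 the highest were Zfp980 (0.35, adjusted p = 0.198), Zfp882 (0.32, adjusted p = 0.0673), Zfp983 (0.29, adjusted p = 0.0664), Zfp944 (0.28, adjusted p = 0.096), Zfp949 (0.23, adjusted p = 0.0974) and Zfp820 (0.23, adjusted p = 0.0553). Below 0 the lowest after Zfp839 were Zfp831 (-0.27, adjusted p = 0.0844), Zfp879 (-0.23, adjusted p = 0.0864), Zfp872 (-0.15), Zfp821 (-0.13) and Zfp939 (-0.12). Zfp866, called against vector, differed between DaxxA and DaxxB by 0.03, with a 95% interval of -0.09 to 0.15 on 7 arrays.

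**Figure D3:**
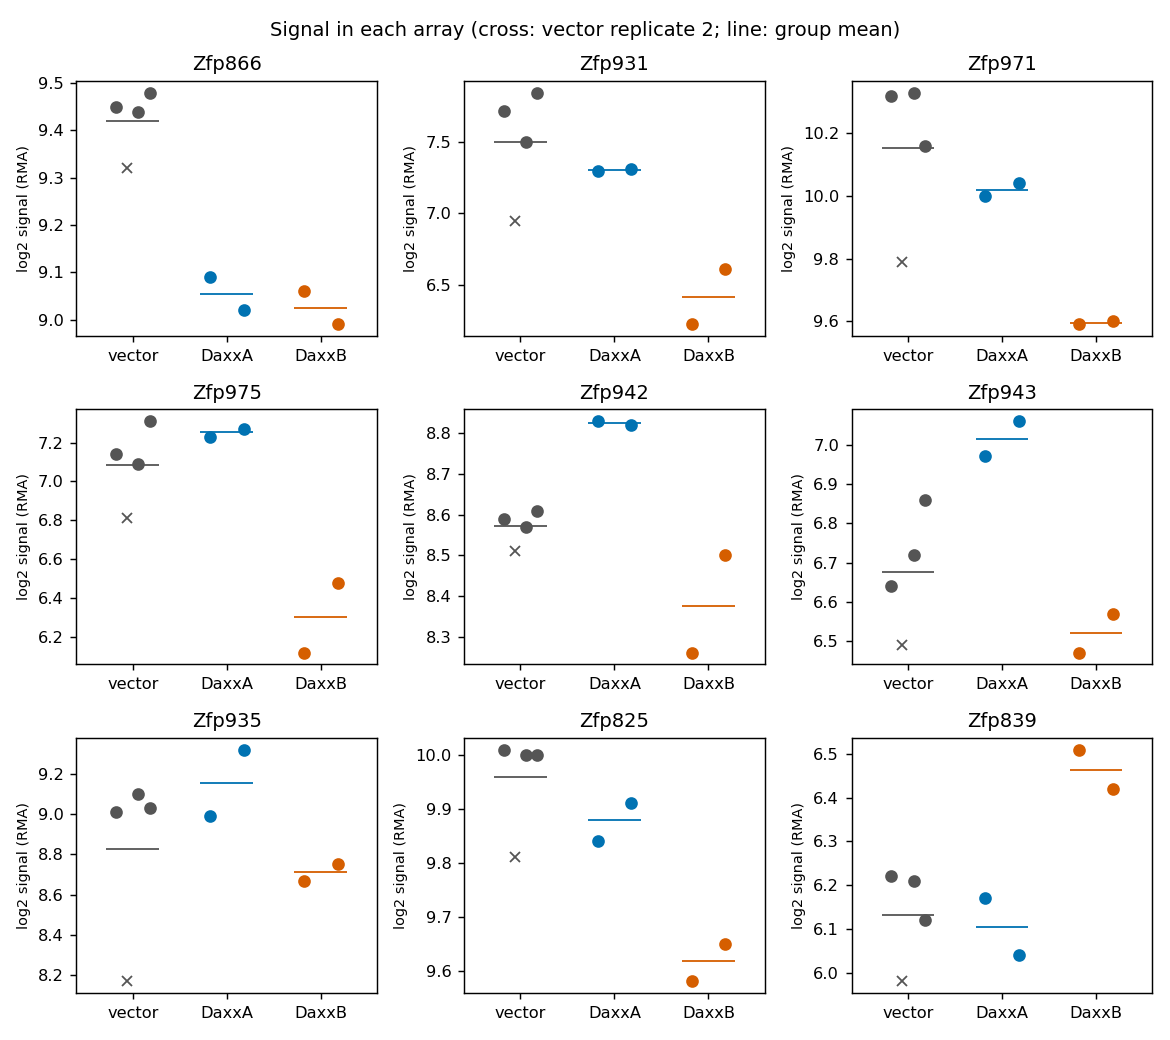
Log2 signal of 9 members in each array by group; the cross is vector replicate 2 and the lines are group means. Zfp866 is lower in both DaxxA and DaxxB, Zfp931, Zfp971 and Zfp975 are lowest in DaxxB, and Zfp839 is highest in DaxxB; each panel has its own vertical scale, which does not start at 0.

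Neighbouring members were compared because such genes are often duplicates. With at most 15 protein-coding genes between members, a limit chosen after the values were seen, 34 members fell into 9 neighbourhoods and 25 stood alone. In the neighbourhood of 9 members that holds Zfp942 and Zfp943 (Zfp948, Zfp983, Zfp820, Zfp942, Zfp943, Zfp947, Zfp944, Zfp946 and Zfp945), DaxxA was above DaxxB for 8, with a median difference of 0.23 and a highest of 0.49. Zfp948 was the exception (-0.002). Zfp947, which lies next to Zfp943, differed by 0.02.

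Other neighbourhoods differed from this one. Zfp971 and Zfp931, adjacent genes, had differences of 0.43 and 0.89. Zfp871, Zfp811, Zfp870 and Zfp952 differed by -0.02 to 0.06 between DaxxA and DaxxB. In the chromosome 4 neighbourhood (Zfp980, Zfp991, Zfp982, Zfp985, Zfp979 and Zfp933), Daxx was above vector for 5 of 6, with Zfp985 the exception at -0.10, and DaxxA was above DaxxB for 5 of 6. On 7 arrays Zfp985 differed by 0.09, so that all 6 were above vector, as were 11381 of 19938 genes. Zfp980, Zfp982, Zfp985 and Zfp979 were not above the background level. Around Zfp866, the members Zfp930, Zfp868 and Zfp869 had differences of -0.04, -0.07 and -0.15 from vector on 8 arrays, none called. The neighbourhoods were described and not tested.

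**Figure D4:**
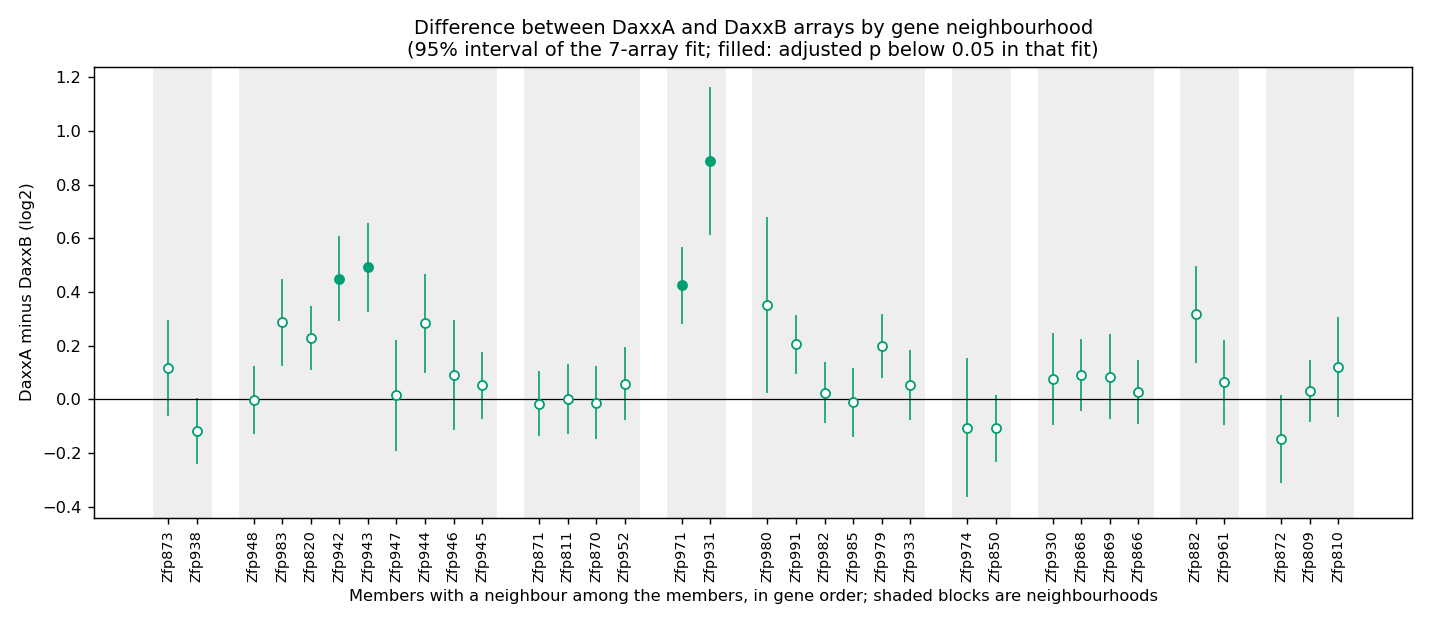
DaxxA minus DaxxB difference (log2) for the 34 members that have a neighbour among the members, in gene order, with 95% intervals from the fit on 7 arrays; shaded blocks are neighbourhoods and filled points have adjusted p below 0.05. Zfp942, Zfp943, Zfp971 and Zfp931 are filled, and the block from Zfp871 to Zfp952 lies at 0.

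Members with and without CCAATCA in the promoter were set side by side, as a description. The letters were chosen after the sequences had been seen, and promoters were printed for genes that differed. The values below are therefore no test of a link. The 21 members with it had a median DaxxA minus DaxxB difference of 0.09, with 17 above 0, and held 5 of the 8 called on 7 arrays. The 33 members without it had a median of 0.04, with 22 above 0, and held 3 of the 8. Of all genes, 2.15% were called on 7 arrays.

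Some member symbols are also listed on probe sets shared with other genes, which leaves it uncertain whether their signals come from 1 gene. Of the 59 members, 14 are also listed on a probe set with several symbols, among them Zfp931, Zfp971, Zfp975 and Zfp935 of the 8 called between DaxxA and DaxxB, and Zfp979, Zfp980 and Zfp991 of the chromosome 4 cluster. Zfp942, Zfp943, Zfp825, Zfp839 and Zfp866 are not. The 4 probe sets with several symbols that list Zfp931 and Zfp971 differed between DaxxA and DaxxB by 0.11 to 0.17. The 3 that list Zfp975 differed by 0.06 to 0.24. The single-symbol probe sets of Zfp931, Zfp971 and Zfp975 had larger differences in the same direction (0.89, 0.43 and 0.95). Of the 45 members listed only on single-symbol probe sets, 4 (8.89%) were called between DaxxA and DaxxB on 7 arrays, against the same 2.15% of all genes.

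The partners through which these proteins act were described in the same way. Of 34 listed genes of KRAB silencing and of the Daxx pathway, 28 were measured and 0 were called between Daxx and vector on 8 arrays, against 4.52% of all genes. Groups did not overlap for 8 of the 28, all higher with Daxx, against 8.02% of all genes higher without overlap. An unadjusted p below 0.05 (limma) was reached by 6 of the 28, all higher with Daxx. Of all genes, 7.96% reached it and were higher, and 15.4% reached it in either direction. Trim28 read 10.45 with vector and 10.54 with Daxx (difference 0.09 on 8 arrays and -0.03 on 7, adjusted p = 0.728 and 0.75), and Setdb1 9.45 and 9.40 (difference -0.05, adjusted p = 0.708). On 7 arrays 2 rose, against 5.26% of all genes: Mta1, a subunit of the NuRD remodelling complex, by 0.29 (adjusted p = 0.0032) and Atf7ip, a partner of Setdb1, by 0.19 (adjusted p = 0.016). Between DaxxA and DaxxB 0 of the 28 were called on 8 or 7 arrays, against 0.0% and 2.15% of all genes.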

How the data were processed

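Affymetrix expression arrays of 8 samples were used. The deposited values are log2 signals that the authors made with Affymetrix Expression Console and RMA, per the submitters' processing notes; RMA corrects background, normalizes between arrays and summarises each probe set (the deposited columns did not share 1 distribution), which compresses differences near background and hides a shift common to most genes. Software versions and the build of the array annotation were not found in the labels. Of 35556 probe sets, 21789 list 1 gene symbol, 1621 several and 12146 none; only the first kind entered, with 1 probe set for each of 19938 genes, and no signal filter.

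The tests were made in R 4.3.3 by limma 3.58.1 (lmFit, eBayes; 2 conditions for Daxx against vector, otherwise 3 groups) with Benjamini-Hochberg adjustment over all 19938 genes, and called at an adjusted p below 0.05. Intervals are 95% confidence intervals of the difference between groups, computed from the spread between arrays. The number of arrays limits the precision. Sequences and gene order come from RefSeq (GRCm38.p6); promoters were aligned with Biopython 1.88.

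Simulated data had 200 changed genes and independent normal noise, with the same spread of a gene on every array. For Daxx minus vector, the 8-array fit recovered 59% of changes of 0.5 and 84% of changes of 1. For DaxxA minus DaxxB it recovered 32% and 77%. On 7 arrays the shares were 94% and 100%, and 86% and 99%. False calls were 2.72% and 2.68% of calls on 8 arrays, and 5.37% and 6.09% on 7. No simulated array stood apart as vector replicate 2 did, so these shares need not hold for the real arrays.

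Named members were those called for Daxx minus vector with or without vector replicate 2, those called in DaxxA or DaxxB, the 6 highest and 6 lowest for DaxxA minus DaxxB, the 5 brightest and 3 dimmest, and members with a known role; others were named after their values were seen. Naming by protein identity, and counts of fingers and KRAB domains, were not run, as no protein sequences were used here. The members and lists were chosen with earlier results of these data known. Alternatives were arrays left out, other scaling, array weights, other priors, a filter on dim genes, other probe set choices and a replicate block.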

Additional observations from a re-analysis of the deposited data

Results flagged for a closer look

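Of 64 groups of 4 arrays tested over 32 named members, 7 held an array far from the other 3, where chance flags about 1 in 20 groups. In 4 of them it was vector replicate 2: Zfp819 at 6.02, Zfp825 at 9.81, Zfp935 at 8.17 and Zfp991 at 8.75. The other 3 were Zfp819 in DaxxB replicate 1 (5.31), Zfp871 in DaxxA replicate 1 (10.01) and Zfp954 in DaxxB replicate 2 (6.44), each within a narrow group.

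The difference between DaxxA and DaxxB passed the test on 7 arrays for 8 members: Zfp975 (0.95), Zfp931 (0.89), Zfp943 (0.49), Zfp942 (0.45), Zfp935 (0.45), Zfp971 (0.43), Zfp825 (0.26) and Zfp839 (-0.36). On all 8 arrays none of the 8 passed (limma, adjusted p = 1).

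Probe sets with several symbols were outside the comparisons. Of 28 that list a symbol of the run, 3 were called between Daxx and vector on 8 arrays, all higher with Daxx, in a fit of all 35556 probe sets that called 1.9% (0.65% higher), and each lists at least 1 gene of the chromosome 4 neighbourhood. Probe set 10510201, with 6 symbols, read 6.84, 6.86, 6.84 and 6.90 in the vector arrays, 7.98 and 8.26 in DaxxA and 7.84 and 8.07 in DaxxB; all Daxx values lay above all vector values. Its difference was 1.17 (SE 0.089, 2.26-fold, adjusted p = 0.000512). Probe set 10518335, with 8 symbols, differed by 0.41 (adjusted p = 0.013), and 10518346, with 5, by 0.39 (adjusted p = 0.0306). Which of the listed genes gives these signals cannot be told apart.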

How the results depend on the processing

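Counts of called members depended most on vector replicate 2. With 1 vector array left out in turn, the count ran from 1 to 12 for Daxx minus vector (8-array value 1). It ran from 0 to 11 for DaxxA minus vector (2), from 0 to 20 for DaxxB minus vector (2) and from 0 to 8 for DaxxA minus DaxxB (0). Calls among all genes ran, in the same order, from 457 to 2558, from 173 to 2246, from 212 to 4083 and from 0 to 428. Alternatives chosen after seeing the data combined leaving out vector replicate 2 with other settings and gave, in the same order, 13, 12, 21 and 8 with median centring, 12, 10, 19 and 6 with quantile normalization again, and 12, 12, 20 and 10 with the filter on dim probe sets. Array weights on 8 arrays gave 15, 12, 21 and 8, against 16.2%, 13.6%, 21.3% and 2.43% of all genes. Unadjusted p-values gave 10, 9, 10 and 9, against 15.4%, 11.4%, 14.5% and 4.24%. Fitting 3 groups gave 2 for Daxx minus vector, against 807 of 19938 genes. The 4 DaxxA and DaxxB arrays alone gave 7, against 1.82% of all genes. For Daxx minus vector and DaxxB minus vector, the filter on dim probe sets gave 3 and 5 of 48 members. Of the genes it kept, 10.3% and 7.18% were called. Quantile normalization again gave 3 and 5, against 1402 and 1037 of 19938 genes. A trended robust prior gave 2 and 5, against 1287 and 901 genes. For DaxxA minus vector and DaxxB minus vector, both median centring and testing all probe sets gave 0. Of 19938 genes, median centring called 223 and 257, and testing all probe sets called 225 and 326. No label pairs the replicate numbers of the titles. Correlations of same-numbered deviations ran from 0.024 to 0.162, which does not settle whether the numbers mark a pairing. The replicate block gave 0 members for Daxx minus vector, DaxxA minus vector and DaxxB minus vector. It called 162, 0 and 0 of all 19938 genes there. Zfp866 stood at -0.34 for Daxx minus vector in that fit (adjusted p = 0.124). Among named members 584 settings kept direction and call, 100 gained the call, 41 lost it and 15 reversed, all of these for differences from vector called in neither setting: under median centring Zfp871 (0.0019) and Zfp938 (0.0084); under the replicate block Zfp871 (0.0305), Zfp938 (0.0477), Zfp948 (-0.0003), Zfp954 (0.078) and Zfp957 (-0.0714); and with 1 array left out, as ranges, Zfp871 (-0.0592 to 0.0104), Zfp938 (-0.1 to 0.026), Zfp957 (-0.0279 to 0.2183) and Zfp961 (-0.01 to 0.062). Signal limits the 11 members not above background. The causes were not tested.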
